A study of Mus musculus with 6 samples.

Results

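The genes described here are 48 mouse apoptosis and p53 response genes, chosen by name as a set of known members of these pathways, and 13 of them had at least 1 summit in the list of N4-acetylcytidine (ac4C) peaks analysed. These 13 genes held 16 of the 1876 listed summits, in a list that covers 1485 genes in all. The cells were 32D, an IL-3-dependent mouse bone marrow line, labelled as wild type and grown with 10 ng/mL of mouse IL-3. Poly(A) RNA was pulled down with an antibody against ac4C, an acetylated cytidine, in 2 libraries, beside 2 libraries with control IgG and 2 of input RNA from the same untreated wild-type line. The values analysed are 1 list of summits, whose entry names read as peak calling on both ac4C libraries pooled. The values therefore have no spread between replicates, and how deeply each library was sequenced is unknown.

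Apoptosis is a controlled form of cell death. In its mitochondrial route, proteins of the BCL2 family decide whether the outer mitochondrial membrane is opened: BH3-only proteins sense stress, Bax and Bak1 form the pores, and survival members such as Bcl2l1 and Mcl1 hold them in check. Opened mitochondria release factors that start the caspase proteases through Apaf1, while inhibitor of apoptosis proteins (IAPs) counter cell death and death receptors start it from the cell surface. The transcription factor p53, encoded by Trp53, switches on genes of cell cycle arrest, repair and death after damage, and Mdm2 keeps it low. IL-3-dependent myeloid lines such as 32D are known to die by apoptosis when IL-3 is withdrawn; here the cells had it.

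Each summit carries the part of the mRNA it lies in, a position in nt from the start of the listed Ensembl transcript, and a fold enrichment, which is the authors' peak caller's own value. The fold of every entry is a whole multiple of 0.475, which makes it the pileup of pulled-down fragments plus 1 over a constant background plus 1. It therefore has no term for how much of the transcript the cells hold, and none for input or IgG. A listed summit alone does not show ac4C, and a gene without one may be unexpressed, unacetylated or left out by the filter behind the list. Intervals on folds below are exact 95% Poisson intervals of the pileup, and intervals on shares are Clopper-Pearson 95% intervals. Both cover counting error only.

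Of the 48 genes, 13 had a listed summit, or 27.1% (15.3% to 41.8%), beside 6.7% of the 21896 protein-coding genes of the gene table. The genes were chosen with earlier results of these data known, so this share is a description and no independent evidence. The background holds genes these cells may not express, so the higher share does not show that apoptosis genes carry more ac4C than other expressed genes. The listed share was 6 of 14 in the BCL2 family, or 42.9% (17.7% to 71.1%), and 3 of 9 among p53 targets and stress genes, or 33.3% (7.49% to 70.1%). With the further p53 targets Bax, Bbc3, Pmaip1, Fas, Tnfrsf10b and Apaf1 moved from their own roles to the targets, these counts were 6 of 11 and 3 of 15. The listed share was 1 of 3 for the IAPs and 1 of 3 for p53 and its regulators, where Mdm2 was kept in both groupings. Caspases with Apaf1 had 1 of 6 and the death receptor pathway 1 of 6, and the mitochondrial release and nuclease genes had 0 of 6, which allows a share of up to 45.9%. The intervals of all these roles overlap and no test between roles was run, so no order of the roles is read from the shares.

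**Figure D1:**
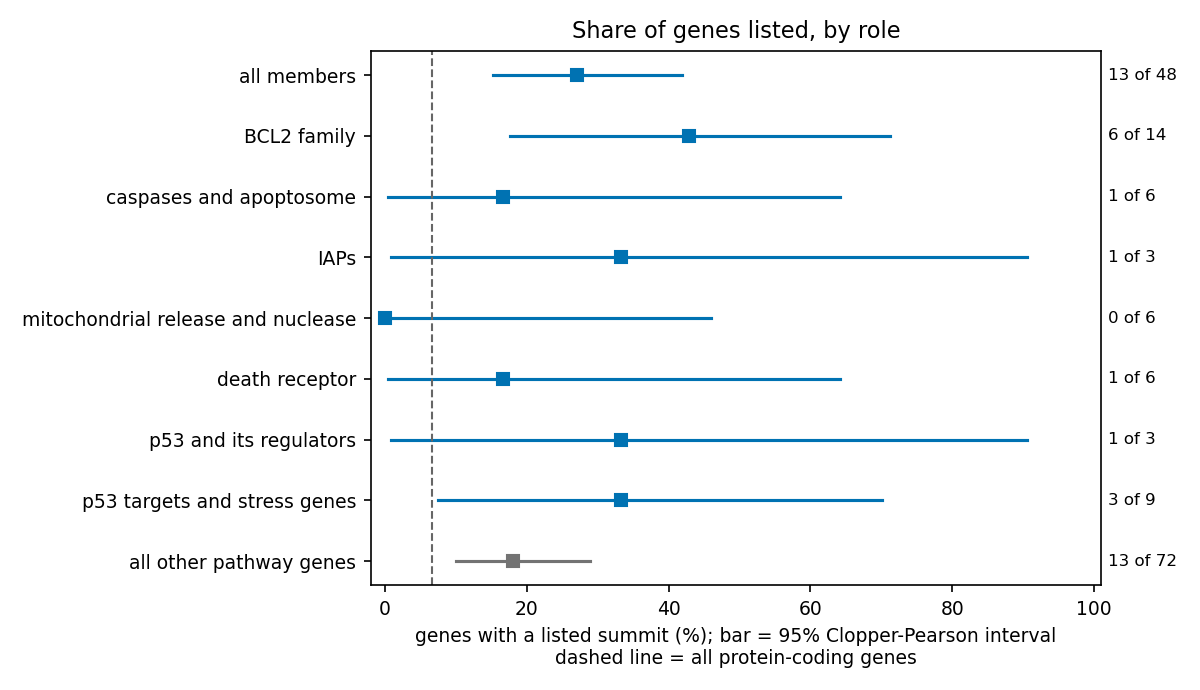
Percentage of genes with a listed summit (x axis) for all 48 genes, for each role and for 72 other genes of the same pathways (y axis); squares are shares, bars Clopper-Pearson 95% intervals and the dashed line is the 6.7% of all protein-coding genes. The BCL2 family stands at 6 of 14. The bars of all roles overlap, so no order of the roles is read from the shares.

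The survival members of the BCL2 family were represented by Bcl2l1 and Bcl2l2, which encode BCL-XL and BCL-W. Bcl2l1 (ENSMUSG00000007659) had 1 summit at nt 1695 of ENSMUST00000007803, in the 3' untranslated region, with a fold of 9.02 (5.54 to 14.0) from a pileup of 18. Bcl2l2 (ENSMUSG00000089682) had 1 summit at nt 2569 of ENSMUST00000133397, also in the 3' untranslated region, with a fold of 6.65 (3.76 to 11.0) from a pileup of 13. Both lay below the median of 11.4 over all summits. Their intervals overlap, and whether the 2 folds differ was not tested. No summit was listed for Bcl2, the founding member, or for Mcl1, a short-lived survival protein.

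Of the pore-forming pair, Bak1 (ENSMUSG00000057789) was listed and Bax was not. The Bak1 summit lay in coding sequence at nt 1094 of ENSMUST00000078691, with a fold of 8.54 (5.18 to 13.4) from a pileup of 17. In the gene table Bak1 overlaps Ggnbp1, which had its own 3' untranslated summit of fold 72.6. Whether reads of the overlapping gene added to the Bak1 summit was not tested.

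Among the 8 BH3-only genes, Bid, Bad and Bnip3 had summits. Bid (ENSMUSG00000004446), whose protein links death receptors to mitochondria, had the highest fold of the BCL2 family members, 20.9 (15.2 to 28.0) from a pileup of 43, at nt 1769 of ENSMUST00000004560 in the 3' untranslated region. This is above the median of all summits by more than counting error. Bad (ENSMUSG00000024959), which binds BCL-XL when growth factor signalling ceases, had 2 coding summits on different transcripts: a fold of 7.12 (4.11 to 11.6) at nt 114 of ENSMUST00000237334 and 6.65 (3.76 to 11.0) at nt 146 of ENSMUST00000113423. The 2 folds come from pileups of 14 and 13 and may be 1 site read on 2 isoforms. The unlisted BH3-only genes were Bcl2l11, which encodes BIM, Bik, the p53 targets Bbc3 and Pmaip1, which encode PUMA and NOXA, and Bnip3l.

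Bnip3 (ENSMUSG00000078566), whose protein sits on mitochondria and serves their removal by autophagy in hypoxia, had 3 listed summits, the most of the 48 genes. On ENSMUST00000106112 a coding summit at nt 293 had a fold of 15.2 (10.5 to 21.4) and a 3' untranslated summit at nt 1345 a fold of 15.7 (10.9 to 21.9), from pileups of 31 and 32. These lay 1052 nt apart on 1 transcript with folds that differed by a factor of 1.03. The entry at nt 293 carries the letter a, so its peak may have had more than 1 summit, of which 1 is listed. A second coding summit, at nt 294 of ENSMUST00000130500, had a fold of 9.02 (5.54 to 14.0). The positions of both coding summits differ by 1 nt between isoforms, so they may be 1 site. Bnip3 was the only one of the 48 genes with listed summits in more than 1 region, and its paralog Bnip3l had none. How many of all listed genes have summits in more than 1 region was not counted.

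Grouped by effect, a grouping chosen after the values were seen, 3 of 8 survival genes (the BCL2 survival members, the IAPs and Cflar) had a summit (interval of the share 8.52% to 75.5%), with highest folds from 6.65 to 21.8. Of the 10 death-promoting BCL2 family genes, 4 had one (12.2% to 73.8%), beside 6.7% of protein-coding genes for both, with highest folds from 7.12 to 20.9. The 2 ranges overlap.

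Caspases are the proteases that carry out apoptosis. Of the 5 caspase genes among the 48, only Casp2 (ENSMUSG00000029863), an initiator caspase linked to DNA damage, was listed. Its summit lay at nt 1663 of ENSMUST00000031895 in the 3' untranslated region, with a fold of 12.3 (8.15 to 18.0) from a pileup of 25. This equals the median highest fold over all listed genes, 12.3. Casp1, an inflammatory caspase, Casp6, an executioner, Casp8 and Casp9, the initiators of the receptor and mitochondrial routes, and Apaf1, the scaffold that activates Casp9, had no listed summit. Nor did the genes of proteins released from mitochondria (Diablo, Htra2, Endog and Aifm1) or of the DNA-cutting factor DFF (Dffa and its nuclease Dffb).

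Among the IAPs, Birc3 (ENSMUSG00000032000), which encodes the ubiquitin ligase cIAP2, had the second highest fold of the 13 listed genes. Its summit lay at nt 1712 of ENSMUST00000115672 in the 3' untranslated region, with a fold of 21.8 (16.1 to 29.1) from a pileup of 45. Its neighbour and close paralog Birc2 had no listed summit, nor did Xiap, which binds caspases directly. Fragments from sequence that paralogs share can be assigned to either gene, and whether this happened here was not tested.

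In the death receptor pathway, Tradd (ENSMUSG00000031887), an adaptor of the TNF receptor, had a coding summit at nt 199 of ENSMUST00000034359 with a fold of 7.12 (4.11 to 11.6) from a pileup of 14. The receptors Fas and Tnfrsf10b, the adaptor Fadd, the kinase gene Ripk1 and Cflar, which encodes the caspase-8 inhibitor FLIP, had no listed summit. The TNF adaptor was therefore the only listed gene of 6 in this role, and its fold lay below the median of all summits, though within counting error of it.

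Trp53 itself had no listed summit. Its ubiquitin ligase gene Mdm2 (ENSMUSG00000020184) had the lowest fold of the 13 listed genes, 5.70 (3.08 to 9.82) from a pileup of 11, at nt 907 of ENSMUST00000020408 in coding sequence. Of all listed genes, 13.7% had a lower highest fold than Mdm2. Mdm4, its relative and partner, had no summit.

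The p53 targets and stress genes held the highest fold. Ccng1 (ENSMUSG00000020326), which encodes cyclin G1, had a coding summit at nt 454 of ENSMUST00000020576 with a fold of 40.8 (32.7 to 50.4) from a pileup of 85. It ranked 116 among the 1485 listed genes, and its interval overlapped that of none of the other 15 summits. The entry carries the letter b, so its peak had at least 2 summits, of which 1 is listed.

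Cdkn1a (ENSMUSG00000023067), which encodes the cell cycle inhibitor p21, had a 3' untranslated summit at nt 648 of ENSMUST00000119901 with a fold of 19.5 (14.0 to 26.3) from a pileup of 40. Its letter is c, so at least 3 summits were called in that peak and 1 is listed. Gadd45g (ENSMUSG00000021453), a gene of the growth arrest and DNA damage family, had a 3' untranslated summit at nt 977 of ENSMUST00000021903 with a fold of 13.8 (9.31 to 19.7) from a pileup of 28. Its relatives Gadd45a and Gadd45b had none. The sestrin genes Sesn1 and Sesn2, which restrain mTORC1 signalling under stress, Trp53inp1 and the exonuclease gene Aen were not listed either. All 3 listed genes of this role had a highest fold above the median of all listed genes. That median was passed by 49.4% of all listed genes. Mdm2, placed with p53 and its regulators and so not counted here, lay below it at 5.70. Of the 3 listed companion genes of this role, given below, 1 lay above it and 2 below. Pdcd4, an inhibitor of translation placed in no role, had no summit.

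**Figure D2:**
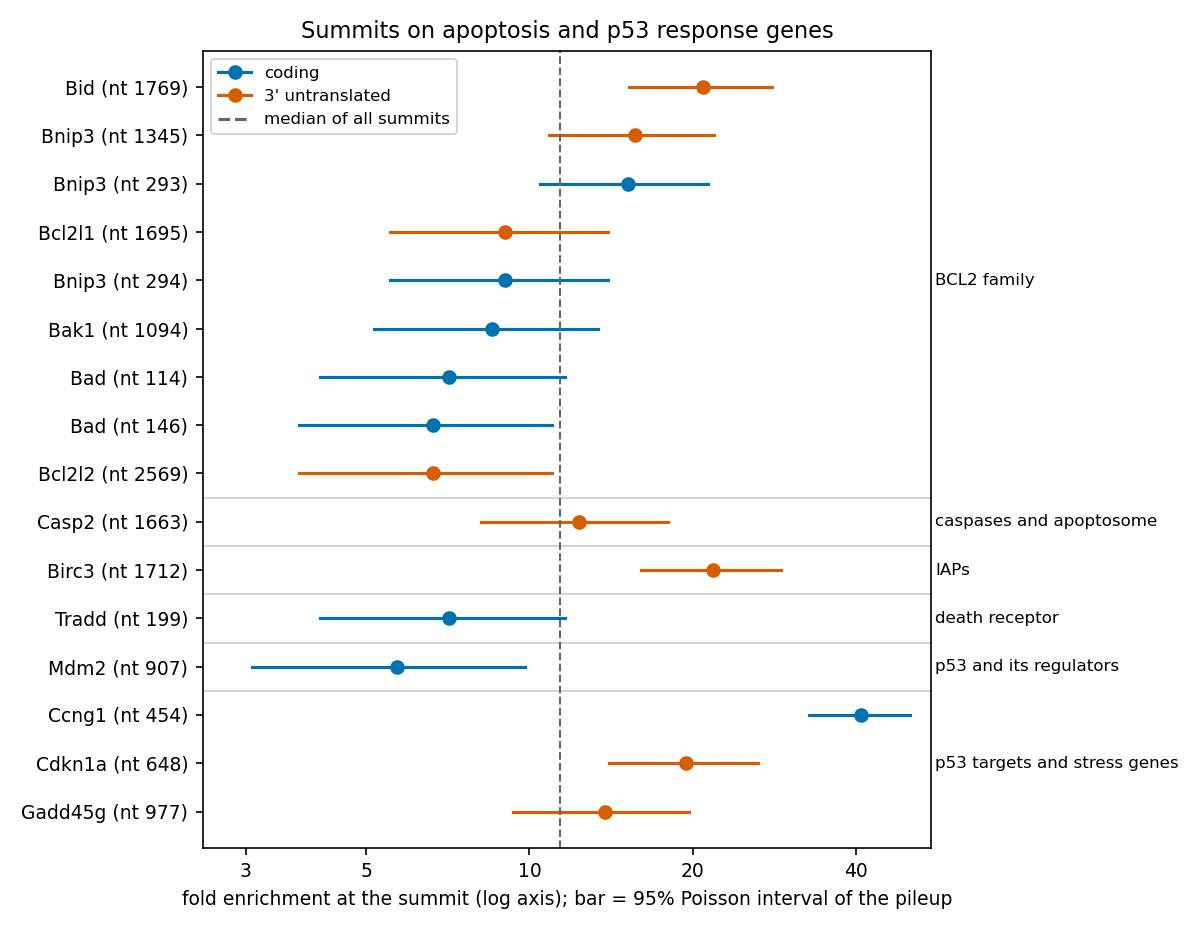
Fold enrichment (x axis, log scale) of the 16 summits, each named by gene and position on its transcript and grouped by role; bars are exact 95% Poisson intervals of the pileup and the dashed line is the median of all summits, 11.4. Ccng1 stands at 40.8, clear of the other bars, and Mdm2 is lowest at 5.70.

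As a set the 13 genes sat at the middle of the list. Their median highest fold was 12.3, with a range from 5.70 to 40.8, beside a median of 12.3 over all 1485 listed genes with quartiles of 7.12 and 21.4. Above that median were 6 genes, 1 equalled it and 6 were below, beside 49.4% of all listed genes above it. The intervals of 4 summits, those on Bid, Birc3, Ccng1 and Cdkn1a, lay wholly above the median of all summits. The intervals of 3, on Bad at nt 146, Bcl2l2 and Mdm2, lay wholly below it, and the other 9 held it. The shares of all listed summits with intervals wholly above or below that median were not counted. These counts therefore describe the summits and do not set them apart from the whole list. Counting only summits with a fold at or above that median leaves 7 of the 48 genes, beside 3.64% of protein-coding genes. The −log10 q-values in the authors' deposited table ran from 7.24 for Mdm2 to 124.6 for Ccng1.

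**Figure D3:**
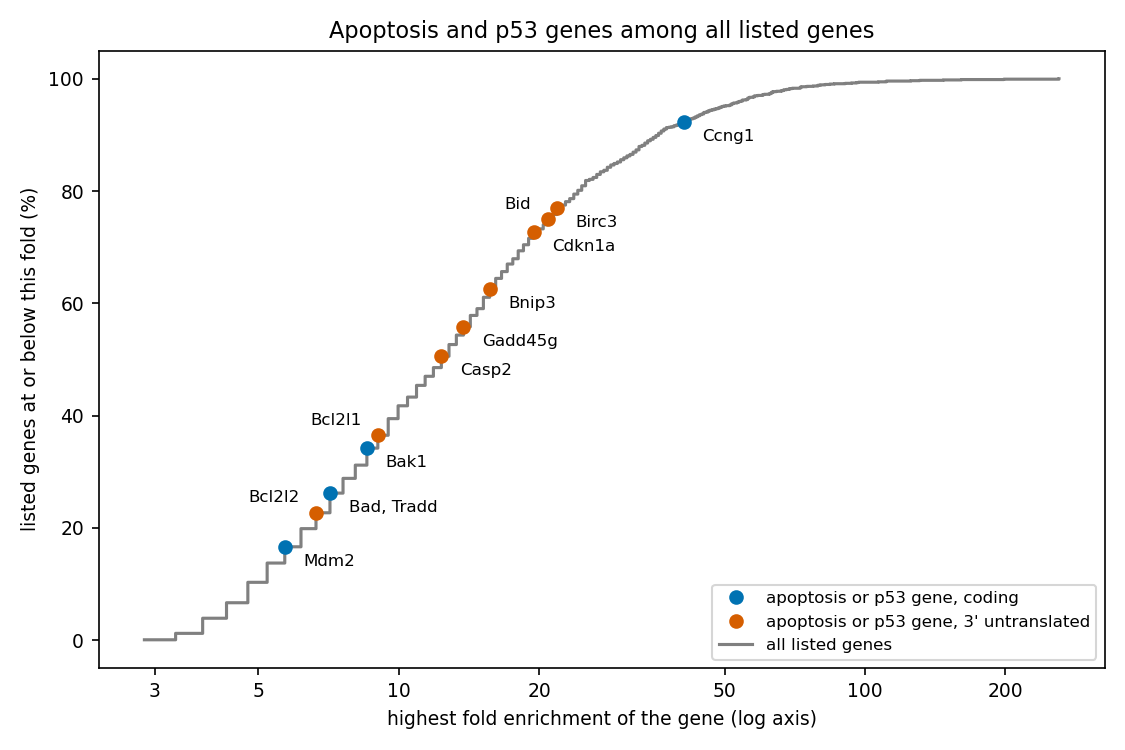
Cumulative percentage of the 1485 listed genes (y axis) by highest fold enrichment (x axis, log scale), with the 13 listed apoptosis and p53 genes as points coloured by the region of that summit. The points spread from Mdm2 at 5.70 to Ccng1 at 40.8, and 6 lie above the median of 12.3.

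By region, coding sequence held 8 of the 16 summits (interval of the share 24.7% to 75.3%), beside 48.0% of all listed summits, and the 3' untranslated region held the other 8, beside 44.9%. No summit lay in a 5' untranslated region (0 of 16, which allows up to 20.6%), beside 7.09% of all listed summits. In terms of genes, 8 of 48 had a 3' untranslated summit, beside 3.31% of protein-coding genes, 6 of 48 had a coding summit, beside 3.45%, and 0 of 48 had a 5' untranslated one, beside 0.557%. At the highest summit of each gene, 8 of 13 were 3' untranslated, or 61.5% (31.6% to 86.1%), beside 46.7% of all listed genes, and 5 were coding, or 38.5% (13.9% to 68.4%), beside 45.9%. Both intervals hold the share over all listed genes. The 8 genes with a 3' untranslated highest summit had a median fold of 14.7 with a range from 6.65 to 21.8, and the 5 with a coding one had a median of 7.12. Of those 5, Ccng1 reached 40.8 and Bak1, Bad, Tradd and Mdm2 lay from 5.70 to 8.54. Over all listed genes the same medians were 12.8 and 11.4. The 3' untranslated genes of the whole list include some known from other tissues, named with the markers below.

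Of the 8 coding summits, 6 were nearer the transcript start than the median of 730.5 nt for all coding summits, and 5 lay within the first 300 nt, beside 23.0% of all 900 listed coding summits. These 5 were on Bad, Tradd and Bnip3, and counting the Bad pair and the Bnip3 pair as 1 site each leaves 3 of 6 sites. The summits on Mdm2 at nt 907 and Bak1 at nt 1094 lay beyond the median. The 3' untranslated summits ran from nt 648 on Cdkn1a to nt 2569 on Bcl2l2, and 7 of 8 lay nearer the start than the median of 2236 nt for that region. Positions are counted from the transcript start and depend on transcript length, which was not used here.

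**Figure D4:**
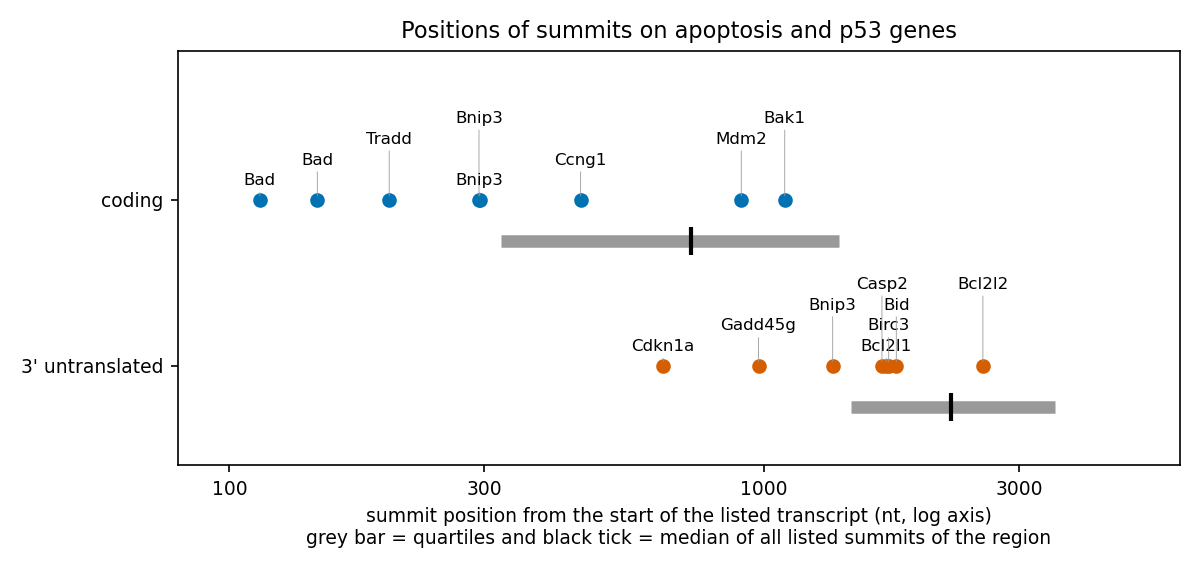
Position of each summit from the start of its listed transcript (x axis, nt, log scale) for coding and 3' untranslated summits of the apoptosis and p53 genes; the grey bar spans the quartiles of all listed summits of the region and the black tick is their median. Of the coding points 6 of 8 lie left of the tick, and of the 3' untranslated points 7 of 8.

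More than 1 listed summit was found for Bad and Bnip3, 2 of the 13 listed genes, beside 20.1% of all listed genes. Both of these genes had summits on 2 transcripts, beside 13.1% of all listed genes. Of the 13 listed genes, 5 overlap another gene in the table, and for Bak1 alone that other gene was itself listed. The share of all listed genes that overlap another gene was not counted, so this is a description only.

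The same pathways hold further genes outside the 48, of which 72 are given as a companion list. Of these 72, 13 had a summit, or 18.1% (9.98% to 28.9%), beside 6.7% of all protein-coding genes. Their median highest fold was 9.49, with a range from 3.32 to 63.1. For the companion counts by role below, the same 6.7% is the background, and the interval of each role holds it. Of 6 further caspase and apoptosome genes, 2 were listed: Cycs, the cytochrome c gene, had a fold of 63.1 in its 5' untranslated region, and the inflammatory caspase gene Casp4 had 37.5. Casp4 neighbours the unlisted Casp1 in the gene table. In the BCL2 family, Bcl2l13, the neighbour of Bid, had 17.6 and Bnip2 6.17, or 2 of 13.

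Among the companion p53 targets and stress genes, 3 of 20 were listed, again beside 6.7% of protein-coding genes. Their folds were 23.3 on Ddit3, which encodes the stress factor CHOP, 9.49 on Btg2 and 7.12 on Phlda3. Of p53 regulators, 2 of 12 were listed, the phosphatase gene Ppm1d at 6.17 and the checkpoint kinase gene Chek2 at 3.32. Traf1, a TNF receptor adaptor, had 9.97 as the only listed one of 10 death receptor genes, and Naip5 had 9.49 as the only one of 6 IAP family genes. Among mitochondrial and nuclear death genes, 2 of 5 were listed, with 11.4 on Parp1, a DNA repair enzyme gene, and 8.54 on the mitochondrial channel gene Vdac2.

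The label of the cells was set against marker genes. Of 12 myeloid and IL-3-dependent progenitor genes, 5 had a summit, or 41.7% (15.2% to 72.3%), beside 6.7% of protein-coding genes. These were Spi1 at 53.6, Fcer1g at 44.6, Csf2rb2 at 10.4, Csf2rb at 9.02 and Prtn3 at 4.27. The other 7, Cebpa, Mpo, Elane, Ctsg, Ms4a3, Il3ra and Kit, had none. Of 24 markers of B cells, T and NK cells, erythroid and non-hematopoietic cells, 1 had a summit, or 4.17% (0.105% to 21.1%), beside the same 6.7%. It was the globin gene Hba-a1 at 41.8, which has a near-identical copy. Outside this panel the list also holds olfactory receptor genes, such as Olfr1423 and Olfr71, and genes known from neurons, such as Shank1 and Grik2. The highest summits of these named genes were 3' untranslated, with folds above the median of all listed genes except on Olfr71. How many such genes are listed was not counted, so 1 of 24 does not show the list to be free of them. What their summits reflect was not tested. The labels give the cell type as lymphoblastocytes, and none of the 6 B cell or the 6 T and NK cell genes was listed, which allows up to 45.9% for each. That limit lies above the 6.7% of all protein-coding genes, so these absences say nothing about the label. A summit list does not measure expression, so this sets no level for any marker.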

How the data were processed

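RNA of 32D cells was profiled by ac4C pull-down in 6 libraries of 3 groups, per the labels; whether the paired libraries of each group are separate cultures is not stated there. The submitters' processing notes name cutadapt, Bowtie2, MACS2 and GRCm39; versions, parameters, the control library and the filter behind the list are not given in the sources used here. Per the file headers, the deposited table holds a fold (a ratio) and −log10 of p-values and q-values, besides the position and region of each summit, as the authors assigned them. Numbered peaks run to 33651, and 5.42% of the numbers are listed.

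Pileups were recovered from the deposited fold as fold over 0.475 minus 1 (folds within 0.01 of a whole multiple). With a Poisson background of 1.11 they return the −log10 p-values within 0.00047% of the deposited ones. Genes were matched by symbol to a RefSeq gene table of GRCm38.p6, which served for names and neighbours: all 48 and the 72 companion genes matched. A gene's value is its highest fold. All genes and summits of these lists that were listed are named; some further companion genes are not reported here.

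The members and lists were chosen with earlier results of these data known. No test was run: genes are not replicates, and the planned comparison of ac4C with IgG and input needs values per library. Calculations used Python 3.11.15, scipy 1.17.1 and pandas 2.3.3 and were tested on simulated data.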

Additional observations from a re-analysis of the deposited data

How the results depend on the processing

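No paired analysis was possible because both ac4C libraries share 1 pooled list, which also has no value with a library left out and no known depth. Of 36 alternative values, 31 stayed within the 95% interval of the value reported and 5 did not. Some of the 31 could not move, such as a share of 0 under a stricter list or a role that the regrouping left unchanged. The synonym and q-value settings also changed no count. The 31 are therefore no measure of how robust the values are. With folds at or above the median of all summits, the share of genes with a summit was 14.6% over the 48, beside 3.64% of protein-coding genes, 14.3% in the BCL2 family, and 0 in the death receptor pathway and for p53 and its regulators; the stricter list holds fewer genes by construction. With coding summits alone the share over the 48 was 12.5%, beside 3.45% of protein-coding genes, and that list too holds fewer genes by construction. With Bax, Bbc3, Pmaip1, Fas, Tnfrsf10b and Apaf1 counted as p53 targets, 3 of 15 targets had a summit, against 6 of 11 in the rest of the BCL2 family, 1 of 5 caspase genes and 1 of 4 death receptor genes. With the summits on isoforms of Bad and Bnip3 counted as 1 site each, an alternative chosen after seeing the data, coding sequence held 42.9% of 14 sites. The median highest fold ranged from 7.83 with coding summits to 19.5 with folds at or above the median, beside 10.9 and 19.9 over all listed genes.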
